A study of Mus musculus with 4 samples.

Results

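The cells described here are 207 T-like cells that carried transcripts of Cd8a, Cd8b1 and Trac in cultures meant to hold only early T-cell progenitors. They were chosen in the mRNA library of experiment 2 as cell barcodes with at least 500 detected genes, under 10% mitochondrial transcripts, and at least 1 unique molecular identifier (UMI, 1 captured transcript) of each of the 3 genes. They made up 2.03% (exact 95% interval 1.76 to 2.32%) of the 10214 cells kept in experiment 2, and the series held 19546 kept cells in all. They were set against the 10007 other kept cells and against 194 NK-like cells of the same library, which had no Cd8b1 UMI and at least 4 of the 8 genes Klrd1, Klrk1, Klrc1, Klrc2, Il2rb, Xcl1, Ncr1 and Tbx21. The 3 genes of the rule were read from the same cells, so their levels and the separation they give describe the choice of cells.

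The study grew mouse bone-marrow progenitors on OP9-Dll1, a stromal cell line that carries the Notch ligand Dll1, with IL-7 and Flt3-ligand at 10 ng/ml, and asked how Runx transcription factors act on early T-cell genes. Progenitors for overexpression came from B6.Bcl2 transgenic mice aged 8 to 10 weeks and received MSCV-Runx1-mCherry or MSCV-empty-mCherry on day 2, with harvest on day 4 or 6. Progenitors for the double knockout came from B6.Cas9;Bcl2 transgenic mice and received E42 vectors with guides against Runx1 (hNGFR reporter) and Runx3 (mTurquoise reporter), 3 guide pairs for each gene, or control guides against luciferase, with harvest on day 5 or 8. Every group thus carried the Bcl2 transgene, which favours survival, and no age is given for the Cas9;Bcl2 mice. Sorted live cells were CD45+ and negative for lineage markers, and carried the reporter or both reporters. The labels call all cells Phase 1, cKit-high, double-negative progenitors, and give experiment 2 a total of 4 to 8 days of culture. The cultures were marked with 8 hashtags (antibody-bound DNA tags) and pooled. The labels do not say which hashtag held which condition, so the hashtags are 8 cultures of unknown condition, and no comparison of Runx1 or Runx3 perturbation with its control was made.

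A mature CD8 T cell reads antigen through an alpha-beta T-cell receptor, whose Trac and Trbc chains pair with the CD3 signalling proteins, and Cd8a and Cd8b1 encode the chains of the CD8 coreceptor. Cytotoxic CD8 T cells and natural killer (NK) cells share a killing machinery of perforin and granzymes, kept in granules and released onto target cells. In normal development Trac is transcribed and joined to a rearranged V gene only at the double-positive stage, well after the Phase 1 stage that the labels name.

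With 1 mRNA library per experiment and cultures of unknown condition there was no replicate of a known group, so no test of a difference between groups was made and no p-value is given. Values are UMIs summed over cells and scaled by the total of those cells to CPM, counts in every 1000000. All intervals are exact 95% intervals for counting error, and do not cover differences between cultures. The limit that a count of 0 allows is 3 counts of the total. Experiment 2 held 296727412 UMIs in 10556 barcodes. The T-like cells had a median of 28463 UMIs (3982 to 152377), the NK-like cells 19840 and the other cells 26627. The 2 experiments shared 39 cell barcodes, of which 1 belonged to a T-like cell. In bulk or summed counts, fewer positive cells and less RNA per cell cannot be told apart, so the number of cells with a UMI is given beside levels.

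The T-cell genes of the label were checked first. Over the 207 cells, Cd8b1 had a median of 12 UMIs (1 to 43), Cd8a 9 (1 to 50) and Trac 9 (1 to 30). Cd4, the other coreceptor, had no UMI in any T-like cell. Cd3d and Cd3g were found in all 207 cells, Cd3e in 204 and Nkg7 in 207. Cytotoxic genes were found in part of the cells: Gzmb was found in 164 cells, Gzmc in 136, Prf1 in 83 and Ifng in 45. The labels name a cKit-high stage, which refers to surface protein, and the counts here measure RNA only. Over all 207 cells, 55 had a Kit UMI, at 13.3 CPM against 34.9 in the other cells. These genes were also seen, to differing degrees, in stromal-like cells. The source of those UMIs, free RNA in the droplets included, was not tested. The 1 single-tag stromal-like cell with Cd8a held 22 Cd8a UMIs. In 247 single-tag stromal-like cells with a median of 36906 UMIs, a type that should lack these genes, Cd8a was seen in 0.405% of cells, Cd8b1 in 1.62%, Trac in 1.21%, Cd3e in 0.405%, Cd3d in 4.86%, Gzmc in 2.02%, Gzmb in 10.9% and Nkg7 in 29.6%, so a Nkg7 UMI says little of a single cell.

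Cells on either side of the rule's threshold were compared by other genes, as a description. Members with only 1 UMI of at least 1 rule gene numbered 13, and all 13 had a Cd3e UMI, while 18 kept cells had exactly 2 of the 3 genes and 10 of those had Cd3e. Cells with exactly 1 of the 3 genes numbered 302, and 38 of them (12.6%) had Cd3e. A Zap70 UMI was seen in 11 of the 13, in 8 of the 18 and in 20 of the 302. T-cell transcripts were thus also present in some cells just outside the rule.

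The T-like cells were spread very unevenly over the 8 cultures. Hashtag 4 held 104 of them among 1011 single cells (10.3%, interval 8.48 to 12.3%), and hashtag 3 held 30 of 1063 (2.82%, 1.91 to 4.00%). Hashtag 6 held 9 of 976 (0.922%, 0.422 to 1.74%), and hashtags 5, 8 and 1 held 3, 2 and 1. Hashtags 2 and 7 held none, where a count of 0 allows up to 0.301% and 0.295% (the exact intervals reach 0.369% and 0.362%). Hashtag 4 stood above every other culture, and hashtags 3 and 4 together held 134 of the 149 T-like cells with a single tag (89.9%). NK-like cells were distributed differently: hashtag 8 held the highest share (4.00%, 2.86 to 5.43%), hashtag 4 held 2.27%, and the median over the 8 hashtags was 1.76%. Hashtag 4 was also the culture with the lowest median depth, at 18762 UMIs per cell, where the 8 cultures ranged to 31757.

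**Figure D1:**
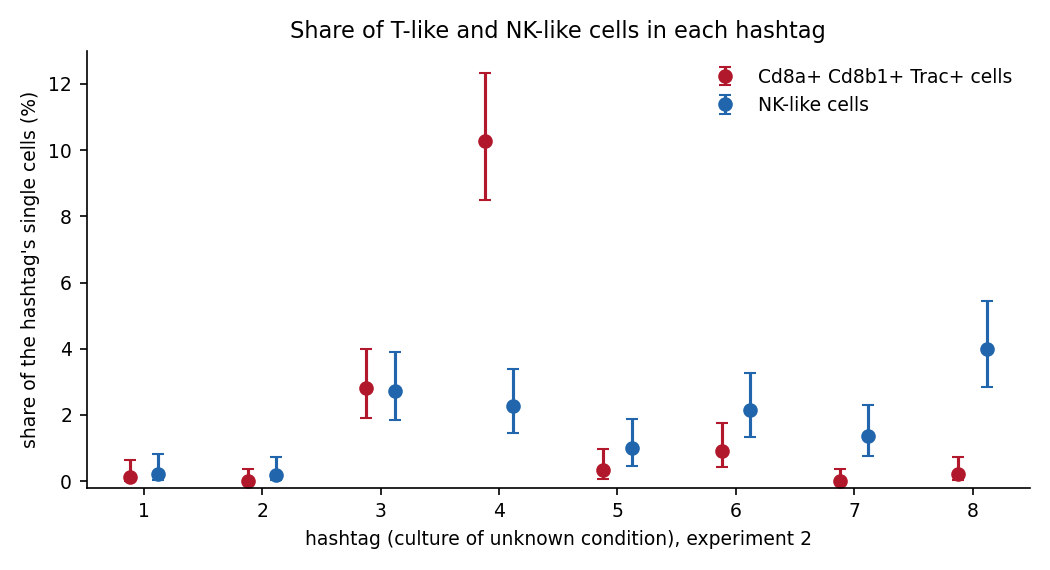
Share of the single cells of each hashtag (vertical axis, %) that met the T-like rule (red) or the NK-like rule (blue) in experiment 2; points are shares and bars exact 95% intervals for counting error. The red point of hashtag 4 (10.3%) stands alone, while the highest blue point is hashtag 8 (4.00%).

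The remaining 58 T-like cells (28.0%, 22.0 to 34.7%) carried the hashtags of more than 1 culture and are called tag doublets. Tag doublets were 20.6% of all kept cells and 27.8% of the NK-like cells. Of the 58, 51 had hashtag 3 or 4 among their 2 strongest tags, against 44.6% of all tag doublets. Their median was 44723 UMIs against 24254 in the single-tag T-like cells. Progenitor transcripts were higher in them: Spi1, a myeloid and early progenitor transcription factor, was at 100 CPM with 38 of 58 cells positive in the doublets, and at 9.20 CPM with 15 of 149 cells in the single-tag T-like cells. Among these it was at 2.35 CPM in hashtag 4 and 23.1 CPM in hashtag 3. The hashtag 3 level rests mostly on 1 cell of 83164 UMIs with 15 Spi1 UMIs, where the next highest cell had 3. The part of doublets in the values over all 207 cells was not tested, and values over the 149 single-tag cells are given where this matters.

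Genes of the T-cell receptor complex were higher in the T-like cells than in both comparison groups for the CD3 chains, and lower for the gamma-delta chains. A gene was called where its CPM differed at least 2-fold and reached 50 CPM in the higher group, which called 144 of 2930 genes as higher than in the other cells (4.91%) and 174 as lower (5.94%). Against NK-like cells 71 of 2896 genes were higher (2.45%) and 126 lower (4.35%). The cells were chosen by genes of this same contrast, so these counts are a description and nothing is read from them. Over all genes the median log2 ratio was 0.02 against other cells and 0.05 against NK-like cells, and over the receptor-complex list 1.29 and 0.00. Of 12 receptor-complex genes, 11 reached the level, and 7 were higher and 4 lower than in the other cells. The 7 include Trac, which is a gene of the rule. Cd3e, a core signalling chain, was at 201 CPM in T-like, 8.60 in NK-like and 5.53 in other cells, which is 23.4-fold (17.1 to 32.9) and 36.4-fold (33.8 to 39.1) higher. Cd3d was at 702, 73.4 and 42.8 CPM, and Cd3g at 692, 169 and 177 CPM. These 2 genes were also present outside the rule in 1 culture. Among the single-tag cells of hashtag 4 outside the rule, NK-like cells included, Cd3g was at 748 CPM against 819 in its T-like cells, and Cd3d at 183 against 813. In hashtags 3 and 6 the cells outside the rule had Cd3g at 42.1 and 12 CPM, against 800 and 925 in the T-like cells. The zeta chain gene Cd247, which NK cells also use, did not separate the T-like cells (61.7 CPM) from the NK-like cells (68.0 CPM).

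The receptor chains split by lineage. The beta-chain constant gene Trbc2 was at 1601 CPM in T-like cells, 799 in NK-like and 654 in other cells, while Trbc1 was at 838, 838 and 382 CPM. All 4 gamma-delta constant genes counted were lower: Trdc was at 22.8 CPM against 104 in NK-like cells, and Tcrg-C4 at 15.1 against 182 (12.1-fold lower). In the single-tag T-like cells Trdc was at 5.36 CPM. Ptcra, the surrogate alpha chain of immature cells, was at 1.33 CPM in the T-like and 3.48 in the other cells.

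**Figure D2:**
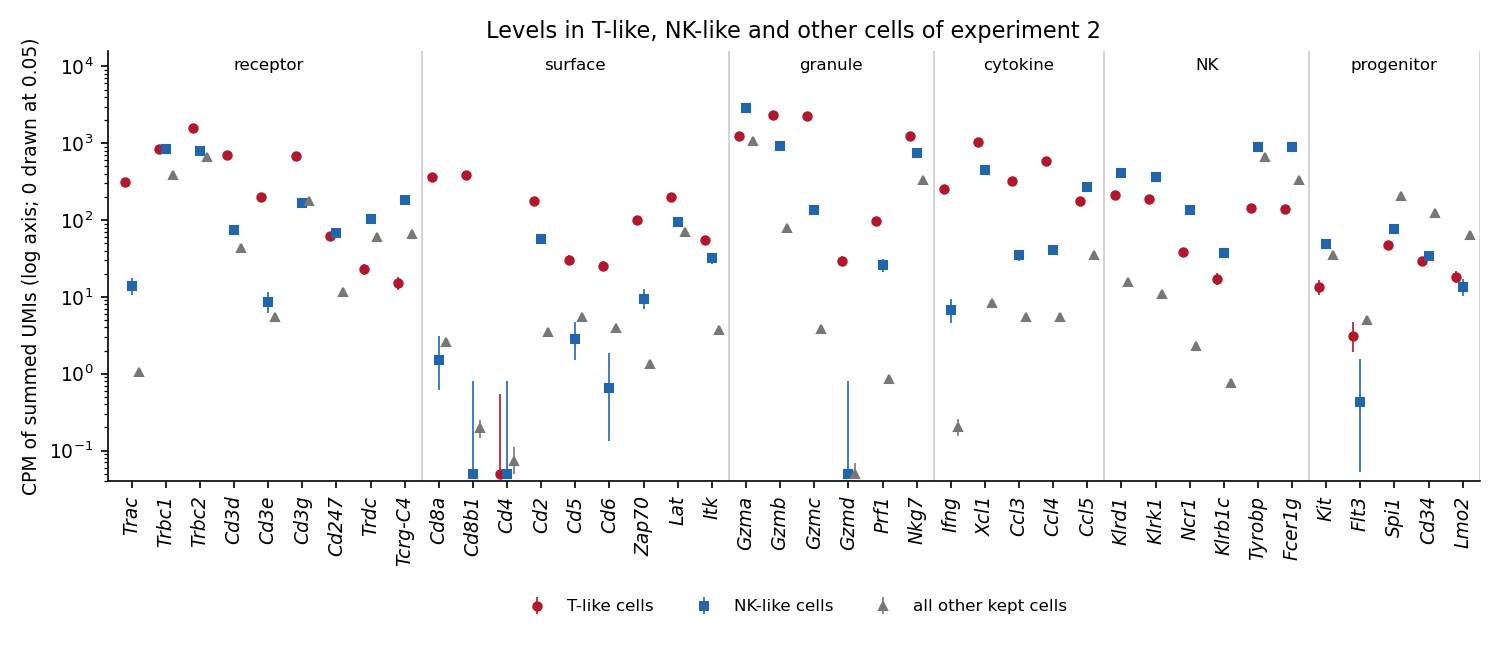
Level of 40 genes in summed CPM (vertical log axis; values of 0 or under 0.05 are drawn at 0.05) in T-like cells (red circles), NK-like cells (blue squares) and all other kept cells (grey triangles) of experiment 2, grouped by role; bars are exact 95% Poisson intervals and mostly smaller than the symbols. Cd3e, Zap70 and Gzmc separate the red from the blue points, while Tyrobp and Fcer1g show the blue points above the red.

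Signalling and surface genes of mature T cells followed the receptor. Of 18 such genes 11 reached the level, and 10 were higher and 0 lower than in the other cells. Against NK-like cells 6 of 12 were higher and 1 lower. Cd8a and Cd8b1, which are genes of the rule, are counted among the higher genes in both comparisons, where the choice of cells fixed their direction. Zap70, the kinase that binds the phosphorylated CD3 chains, was at 99.5 CPM in T-like, 9.46 in NK-like and 1.32 in other cells (10.5-fold, 7.75 to 14.6, above NK-like cells), and 185 of 207 cells had a UMI. Themis, a thymocyte selection gene, was at 42.1, 4.73 and 3.61 CPM. The surface receptors Cd5 and Cd6, which temper receptor signalling, were at 30.6 and 25.3 CPM against 2.80 and 0.645 in NK-like cells. Lck and Cd27 were shared, at 233 and 130 CPM in T-like and 155 and 128 in NK-like cells. Trat1, a receptor-associated adaptor, was the 1 gene of the list lower than in NK-like cells, at 4.44 against 117 CPM.

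Transcripts of rearrangeable V genes separated the groups in the same direction. The shares are at full depth, and T-like cells were deeper than NK-like cells (median 28463 against 19840 UMIs). The part of depth in them was not tested. A Trbv UMI was seen in 44 of 207 T-like cells (21.3%, 15.9 to 27.5%), in 7 of 194 NK-like cells (3.61%) and in 819 of 10007 other cells (8.18%). A Trav UMI was seen in 34 T-like cells (16.4%, 11.7 to 22.2%), in 1 NK-like cell (0.515%) and in 201 other cells (2.01%). Delta and gamma V genes went the other way: Trdv in 1 T-like and 17 NK-like cells (8.76%), and Tcrg-V in 3 T-like and 26 NK-like cells (13.4%). Of the 44 cells with a Trbv UMI, 41 showed only 1 Trbv gene, and of the 34 with a Trav UMI, 31 showed only 1 Trav gene. The other cells were much the same: 768 of 819 showed only 1 Trbv gene and 198 of 201 only 1 Trav gene. Few V-gene UMIs per cell leave little room for a further gene, so nothing is read from these counts.

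V-gene use was spread over many genes. The T-like cells showed 16 Trbv and 22 Trav genes. Trbv12-2 was the most frequent (11 cells, 5.31%), but it was also present in 423 other cells (4.23%). Trbv19 was seen in 7 T-like cells, in no NK-like cell and in 4 of 10007 others. Trbv14, Trbv16 and Trbv13-1 were each seen in 4 T-like cells and in 3, 5 and 3 of the others. In hashtag 4 alone, 20 of 104 cells had a Trbv UMI over 10 genes, with Trbv12-2 leading in 4 cells, and in hashtag 3, 6 of 30 cells over 5 genes. With at least 2 UMIs required, no Trbv gene was seen in more than 1 T-like cell, so clones were not called.

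**Figure D3:**
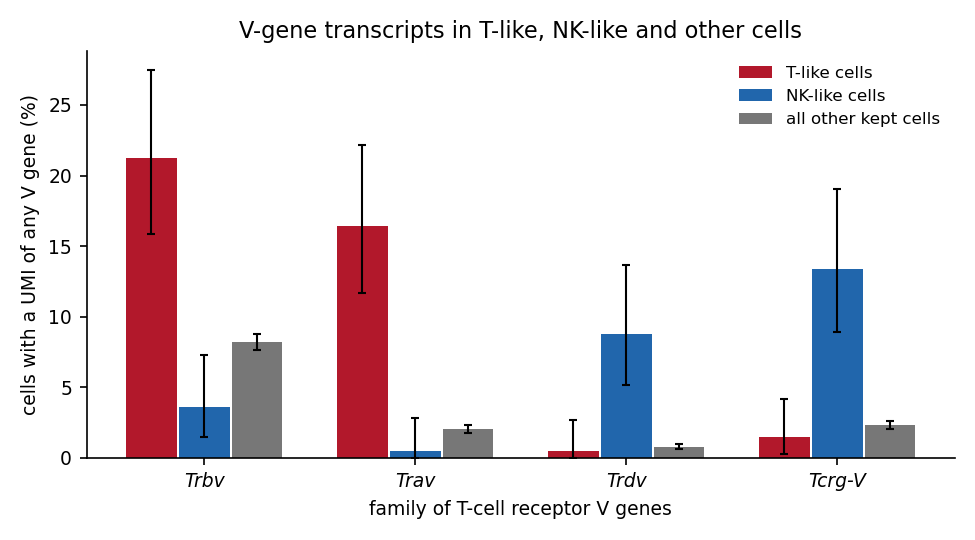
Share of cells at full depth (vertical axis, %) with a UMI of any gene of 4 families of T-cell receptor V genes in T-like (red), NK-like (blue) and other cells (grey); bars are shares and whiskers exact 95% intervals. Trbv (21.3%) and Trav (16.4%) lead in T-like cells, and Trdv (8.76%) and Tcrg-V (13.4%) in NK-like cells.

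Granule genes were high, with differing patterns. Of 15 genes, 8 reached the level, and 6 were higher than in the other cells and none lower. Gzmb, the serine protease that triggers death of target cells, was at 2306 CPM in T-like cells, 916 in NK-like cells (2.52-fold, 2.43 to 2.61, higher) and 79.2 in other cells. Prf1, the pore-forming perforin, was at 97.6, 25.8 and 0.848 CPM. Gzma went the other way against NK-like cells, at 1251 against 2864 CPM. Against NK-like cells of the same hashtag, Gzmb was higher in hashtags 4 and 3 and lower in hashtag 6 (452 against 2021 CPM). Gzmc, which encodes granzyme C, was at 2296 CPM in T-like cells, 136 in NK-like cells and 3.84 in other cells. Pooled over cultures, this is 16.9-fold (15.6 to 18.3) above NK-like cells. Among single-tag cells of hashtag 4, Gzmc was at 4096 CPM in T-like and 454 in NK-like cells. It was at 313 and 212 CPM in hashtag 3, and at 0 and 7.51 in hashtag 6. Gzmc was found in 65.7% of the T-like cells (58.8 to 72.1%), 39.7% of the NK-like and 3.20% of the others, and after thinning every cell to 5000 UMIs in 58.3%, 24.5% and 1.02%. The 5 T-like cells with most Gzmc held 27.2% of its UMIs. Gzmd and Gzme, near copies of Gzmc in the same cluster, were at 29.8 and 21.3 CPM and were found in 8 cells each, so how the authors' counting divided reads among these copies is uncertain.

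Gzmc and Gzmb were often found in the same cells. Over the 146 single-tag T-like cells with at least 5000 UMIs, thinned to that depth, Spearman's rho of their UMIs was 0.714, and 78 cells had both where 82 had Gzmc and 100 had Gzmb. This is a description over cells that share a library. Both genes lie on the minus strand of chromosome 14, and Runx factors, the subject of the study, bind the core motif TGTGGT, which was searched on both strands and reads ACCACA on the opposite one. The windows from 250 bases before to 50 after each start, from RefSeq on GRCm38.p6, are shown because the 2 genes covary and each holds this motif in 2 places. They are chr14:56234608-56234907 for Gzmc and chr14:56262285-56262584 for Gzmb, both minus strand, written 5′ to 3′ along the gene, with the motif in capitals:
Gzmc promoter: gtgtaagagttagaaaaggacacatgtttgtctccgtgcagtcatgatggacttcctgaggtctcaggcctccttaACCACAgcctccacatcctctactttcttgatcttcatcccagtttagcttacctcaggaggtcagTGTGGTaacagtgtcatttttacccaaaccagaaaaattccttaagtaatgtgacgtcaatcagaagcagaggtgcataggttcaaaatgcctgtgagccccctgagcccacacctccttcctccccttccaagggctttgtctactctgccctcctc
Gzmb promoter: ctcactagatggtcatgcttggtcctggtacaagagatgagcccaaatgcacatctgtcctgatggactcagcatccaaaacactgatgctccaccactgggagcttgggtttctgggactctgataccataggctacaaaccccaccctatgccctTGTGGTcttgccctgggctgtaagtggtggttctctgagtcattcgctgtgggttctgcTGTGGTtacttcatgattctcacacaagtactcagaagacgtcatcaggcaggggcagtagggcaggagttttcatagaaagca
In Gzmc the motif begins 174 bases before the start on the minus strand of the gene (ACCACA) and 108 before on the plus strand (TGTGGT). In Gzmb both copies are TGTGGT, 93 and 34 bases before the start. Of 32851 windows of this length in the table, 16.8% held at least 1 copy on either strand and 1.81% at least 2, and the copies do not overlap each other. Windows of Gzma, Prf1 and Xcl1 held 1 copy each, and those of Ifng, Dapl1, Cd8a and Tnfrsf4 none. A match is letters in a window and says nothing of binding in these cells.

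Cytokines and chemokines were high in few cells. Of 15 genes, 6 reached the level and all 6 were higher than in other cells, with 4 of 6 higher than in NK-like cells. Ifng, the interferon that cytotoxic cells release on activation, was at 254 CPM in T-like, 6.67 in NK-like and 0.201 in other cells. It was found in 45 cells (21.7%, 16.3 to 28.0%), or 11.3% at 5000 UMIs, and 79.7% of its UMIs came from 5 cells. Ccl4 and Ccl3, chemokines that attract other leukocytes, were at 580 and 320 CPM against 40.2 and 34.6 in NK-like cells, and 5 cells held 53.3% of the Ccl4 UMIs. Within hashtags 3, 4 and 6, Ccl4 was higher than in NK-like cells in all 3 and Ccl3 in 2. In hashtag 3, Ccl3 was lower, at 107 against 141 CPM. Ccl5 was at 179 CPM, with 93.5% in 5 cells, so its level describes those cells. Xcl1, which draws cross-presenting dendritic cells, was broader: 177 cells (85.5%) had it, at 1039 CPM against 446 in NK-like cells, though it is one of the genes that chose the NK-like cells. Against NK-like cells of the same hashtag, Xcl1 was higher in 1 and lower in 2 of hashtags 3, 4 and 6. Il17a was not seen, and Il4 was seen in 3 cells.

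NK receptor genes were compared with NK-like cells, whose rule used several of them. Of 9 genes of this list that reached the level there, 1 was higher (Xcl1) and 4 were lower. Klrd1 and Klrk1 were under 2-fold lower and were not called. Klrd1, a CD94 chain, was at 214 CPM against 411 in NK-like and 15.7 in other cells, with 177 T-like cells positive, and Klrk1 (NKG2D) was at 188, 365 and 10.9 CPM. The adaptors that were not part of that rule differed more. Tyrobp and Fcer1g, which couple activating receptors to signalling in NK and myeloid cells, were at 145 and 140 CPM against 896 and 893 in NK-like cells, and at 44.2 and 81.0 CPM in the single-tag T-like cells. Ncr1 (NKp46), counted among the 4 lower genes, was at 38.3 against 137 CPM. It is one of the genes that chose the NK-like cells, so the choice of cells favoured this direction. Cd7 was at 65.4 against 438 CPM, 6.69-fold (6.03 to 7.43) lower.

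Transcription factors held fewer differences. Of 24, 9 reached the level against the other cells: Klf2, Batf and Ikzf2 were at least 2-fold higher, at 108, 68.0 and 83.5 CPM, and Zeb2 lower at 18.4. The T-box factors Tbx21 and Eomes, which drive cytotoxic programs, did not reach the level, at 22.5 and 19.0 CPM, but were found in 90 and 76 cells. Against NK-like cells Irf8 was higher (109 against 35.1 CPM), and Id2, a repressor of E proteins needed by innate lymphoid cells, was 5.58-fold (5.08 to 6.13) lower, with Tox and Runx3 also lower. Of the genes the study perturbed, Runx1 was at 24.1 CPM against 42.2 in NK-like and 72.8 in other cells, and Runx3, the partner that silences Cd4 in CD8 cells, at 88.5, 234 and 118 CPM. Bcl2 was at 232, 216 and 99.6 CPM, and its counts cannot be divided into transgene and native gene.

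Of 15 activation and inhibitory receptors, 8 reached the level against other cells, and 6 were higher and none lower. Against NK-like cells 9 reached it, with 2 higher and 2 lower. The 2 higher were Tnfrsf4 (OX40), at 146 CPM against 8.39 in NK-like cells, and the checkpoint gene Lag3, at 110 against 25. The 2 lower were Cd244, at 29.3 against 74.0 CPM, and Cd7, given above. Ctla4 was below the level, at 45.2 against 2.58 CPM. Pdcd1 and Tnfrsf9 were shared with NK-like cells, at 138 and 281 against 105 and 287 CPM. Of 23 homing and cytokine receptor genes 9 reached the level, and 4 were higher and 2 lower than in other cells, led by Il2rb (174 against 4.69 CPM). Against NK-like cells 11 reached it, none higher and 4 lower. The chemokine receptor Ccr2 was at 21.5 against 295 CPM, and Itgae, below the level, at 1.33 against 47.8. Ccr7, which guides naive cells to lymph nodes, was at 61.4 CPM, against 31.8 in NK-like cells.

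Progenitor genes were lower than in other cells, and proliferation genes were not. Of 19 early progenitor genes, 13 reached the level against the other cells, and 11 were lower and none higher. In the single-tag cells Spi1 was at 9.20 CPM, Mef2c at 3.32, Lmo2 at 1.53 and Dntt, the template-free polymerase of rearranging cells, at 2.30, and Rag2 had no UMI. Il2ra, which both progenitors and activated T cells use, was at 142 CPM in T-like, 135 in NK-like and 146 in other cells. All 16 proliferation genes reached the level, and none differed 2-fold from either group: Mki67 was at 275 CPM against 269 in NK-like and 187 in other cells, and Top2a at 411, 490 and 408. An Mki67 UMI was seen in 170 of 207 cells.

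Marker genes of other cell types were summed in single-tag cells of each kind. The 10 granulocyte or monocyte genes summed to 83.3 CPM in T-like, 62.7 in NK-like and 4820 in other cells, and to 661 CPM in the tag-doublet T-like cells. Per single-tag T-like cell this sum had a median of 40.9 CPM and reached 1756 CPM. It was 47.0 CPM over the T-like cells of hashtag 4 and 206 over those of hashtag 3. Its order against NK-like cells was therefore not read. The 9 stromal genes summed to 32.7, 556 and 991 CPM, with 252 in the tag-doublet T-like cells. The 9 dendritic-cell genes were the highest of these sums in T-like cells, at 351, 709 and 1479 CPM. The 9 B-lineage genes summed to 25 CPM in T-like cells, above 8.80 in NK-like and below 113 in other cells. Per single-tag T-like cell the B-lineage sum had a median of 0 and reached 2539 CPM, so its level describes few cells. Of 9 genes of gamma-delta or innate-like T cells the sum was 44.2 CPM against 888 in NK-like cells. Their part in the differences from NK-like cells was not tested.

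Ranked by ratio, genes outside the lists joined the T-cell genes. The 15 genes with the largest ratio over other cells included Dapl1, at 89.7 against 0.114 CPM, the repressor gene Zbtb32 (51.2 against 0.180), and the lymphocyte GTPase genes Gimap3 and Gimap4 (80.7 and 138 against 0.415 and 2.03). Over NK-like cells the 15 also included Serpine2 (71.4 against 4.73 CPM), Gimap7 (58.9 against 4.95) and AA467197 (61.3 against 5.38). The 15 lowest against other cells were neutrophil genes (Ngp, S100a9, Camp, Lcn2, S100a8), collagen and other stromal genes, and Prss34. Ngp and S100a9 were also among the lowest against NK-like cells, but there at 332 and 695 CPM over all NK-like cells and 4.58 and 17.6 in single-tag NK-like cells, and the part of tag doublets in it was not tested. Genes that stayed high in single-tag NK-like cells were 9130015A21Rik (666 against 3.07 CPM in single-tag T-like cells), Tnni1 (332 against 2.55), Lmna (329 against 10.2) and Cd163l1 (119 against 1.02).

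The T-like cells of the 3 cultures with most of them differed in granule and receptor genes. Single-tag cells of hashtag 4 had Gzmc at 4096 CPM with 79 of 104 cells positive (per cell 0 to 1195 UMIs, median 26), those of hashtag 3 at 313 CPM with 13 of 30 (0 to 64, median 0), and the 9 cells of hashtag 6 had none, which allows up to 33.6% of cells by the exact interval. Gzmb had the same order, at 3046, 2102 and 452 CPM. The order was the reverse for other genes. Dapl1 was at 64.2, 193 and 503 CPM, with 23 of 104, 16 of 30 and 9 of 9 cells positive. Ccr7 was at 29.8, 74.9 and 120 CPM, and Cd2, an adhesion receptor, at 94.8, 340 and 624. Tnfrsf4 was lowest in hashtag 4, with hashtags 3 and 6 alike: it was at 62.3, 297 and 284 CPM, with 12 of 104, 20 of 30 and 6 of 9 cells positive. In hashtag 4, 5 cells held 137 of its 159 Tnfrsf4 UMIs. UMIs per cell overlapped between the 3 cultures for each of these genes; for Dapl1 they ran from 0 to 33, 0 to 36 and 2 to 33.

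Between the cells of hashtags 4 and 3, 29 of 2842 genes were at least 2-fold higher in hashtag 4 (1.02%) and 52 lower (1.83%). The receptor genes were alike: Cd3e was at 251 and 226 CPM and Cd8a at 403 and 475, and none of 7 receptor-complex genes differed 2-fold. Of 10 granule genes, 4 were higher in hashtag 4 and none lower, and of 9 homing genes, none was higher and 4 lower. Ncr1 was at 62.6 CPM with 33 of 104 cells against 2.20 CPM with 2 of 30, and Klrb1c (NK1.1) at 34.8 with 47 cells against 2.20 with 2 cells. The 10 genes with the largest ratio each way, listed after the values were seen, were led by Gzmc (13.1-fold, 11.6 to 14.8), AA467197, Ifitm1 and Cd7 in hashtag 4. In hashtag 3 they were led by Prtn3, which came from 1 cell, and then Runx3 and Icos.

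Runx3, one of the genes targeted in the study, was the second gene of the list higher in hashtag 3. It was at 17.6 CPM with 16 of 104 T-like cells positive in hashtag 4 (15.4%, 9.06 to 23.8%), at 146 CPM with 27 of 30 in hashtag 3, and at 219 CPM with 8 of 9 in hashtag 6. The same order held in NK-like cells, at 71.4, 221 and 371 CPM, and cells of neither kind were at 75.6, 136 and 129 CPM. Runx1 was at 9.79, 8.81 and 21.5 CPM in T-like cells of the 3 cultures. The labels do not name the condition of these cultures, and none was read from these levels. Hashtag 4 had lower depth over all its single cells, with a median of 18762 UMIs against 29520 in hashtag 3, and the part of depth in these shares was not tested.

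**Figure D4:**
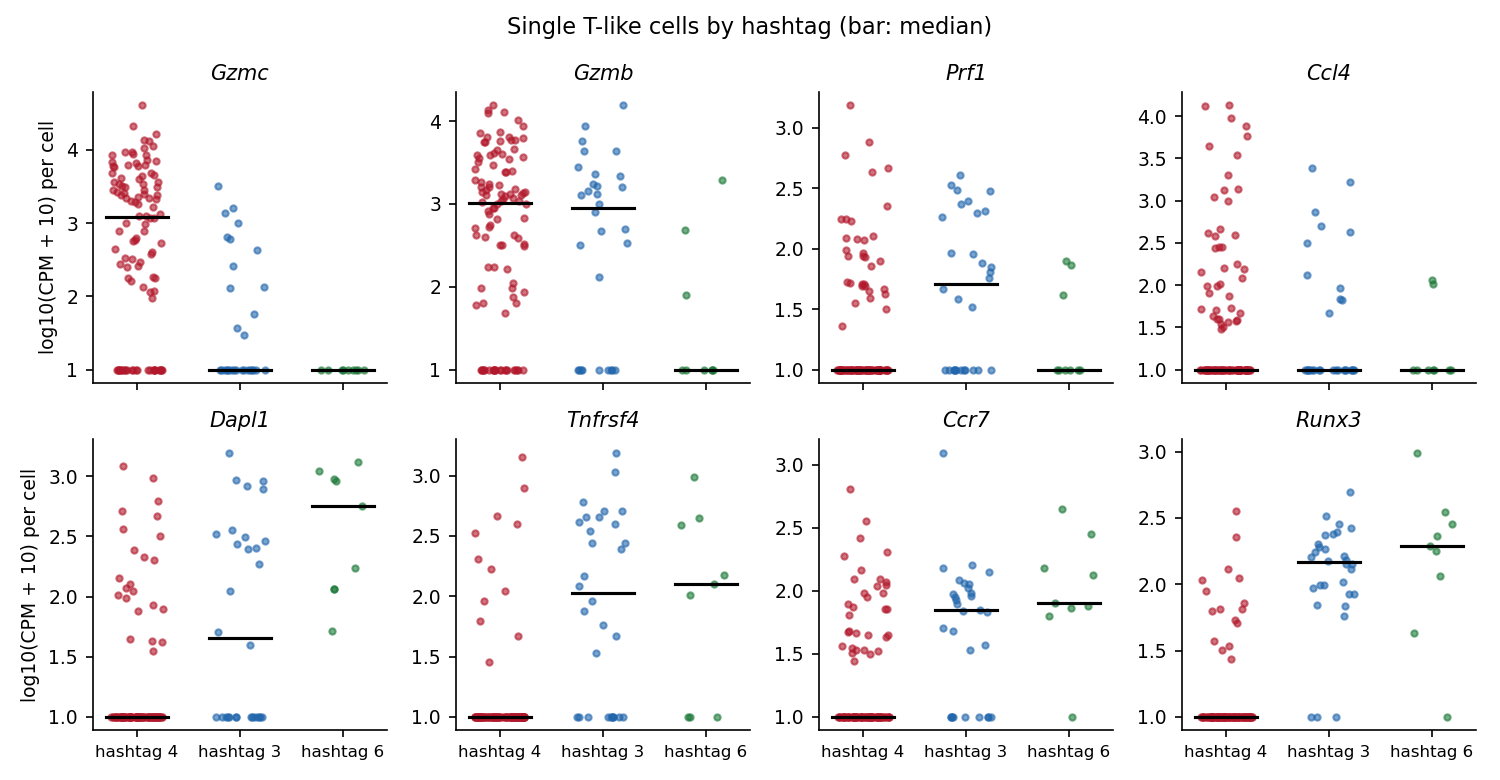
Level of 8 genes in each single-tag T-like cell (vertical axis, log10 of CPM plus 10, so 1.0 is no UMI) for the 3 cultures with most of them, hashtags 4 (104 cells), 3 (30) and 6 (9); dots are cells and bars medians. Gzmc has cells above 1.0 in 79 of 104 cells of hashtag 4 and in none of hashtag 6, and Runx3 and Dapl1 show the reverse order.

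The 6 single-tag cells of hashtags 1, 5 and 8 were read one by one. Ifng was the extreme: 1 cell of hashtag 5 had 558 UMIs and 1 of hashtag 8 had 430, while the other 4 had 0, 1, 4 and 7. The same 2 cells had 217 and 540 Ccl4 UMIs. Only 1 of the 6 had a Gzmc UMI, and all 6 had Tnfrsf4, Cd2 and Runx3. Hashtag 8 held the cell with 69 Ccr7 UMIs, the highest of any single-tag T-like cell, and this cell had 1 Gzmb UMI and no Ccl4. It also had 10 Tyrobp and 2 Spi1 UMIs, where no other of the 6 had more than 1 of either. Whether another cell shared its droplet was not tested.

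Within hashtag 4, cells with a Gzmc UMI had more of other granule and chemokine genes. In hashtag 4, the 79 cells with a Gzmc UMI had Gzmb at 3720 CPM against 167 in the 25 without (22.2-fold, 17.9 to 28.0), and 75 of 79 against 8 of 25 cells were positive. Prf1 was 8.73-fold (3.95 to 24.1), Ccl4 6.44-fold (5.11 to 8.24) and Il2ra 4.52-fold (2.54 to 8.88) higher in cells with Gzmc. Without the 1 cell with most UMIs of the gene, a step added after the values were seen, Prf1 was 5.49-fold and Ccl4 4.87-fold higher. Ifng rested on few cells: its ratio was 6.29-fold (3.26 to 13.9), but 1 cell held 173 of the 242 Ifng UMIs in cells with Gzmc, and without that cell the ratio was 1.83-fold. All 9 Ifng UMIs of the cells without Gzmc came from 1 cell. Xcl1 was at 0.839-fold (0.775 to 0.910) and Nkg7 at 1.03-fold (0.953 to 1.11). Dapl1 (0.179-fold), Ikzf2 (0.234-fold), Lef1 (0.449-fold) and Tcf7 (0.521-fold), the last 3 of them transcription factors, were lower. The cells with Gzmc were deeper, at a median of 22999 against 15664 UMIs, and at 5000 UMIs per cell 93.4% of the 76 deep enough cells with Gzmc had Gzmb against 20.0% of 25. At that depth Lef1 was found in 10.5% and 40.0%, Dapl1 in 11.8% and 16% and Ccl4 in 25% and 24%, so for Dapl1 and Ccl4 the level differed much more than the share of cells.

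Hashtag 3 showed the split for some genes only. Its 13 cells with Gzmc had Ccl4 27.8-fold (12.6 to 76.4) and Gzma 4.47-fold (3.85 to 5.21) higher than its 17 cells without. Without the 1 cell with most UMIs of the gene, Ccl4 was 16-fold and Gzma 2.47-fold higher. Ifng was at 6.57-fold (3.98 to 11.6), with 155 of the 165 Ifng UMIs in 2 cells. The other 11 cells with Gzmc held 10 Ifng UMIs against 17 in the 17 cells without, at a ratio of 0.470. Gzmb was at 2270 against 1855 CPM (1.22-fold, 1.11 to 1.35) though found in 13 of 13 against 8 of 17. Of the 680 Gzmb UMIs in the cells without Gzmc, 1 cell held 415, so the Gzmb ratio depends on that cell. Prf1 was not higher (0.873-fold, 0.560 to 1.37). Tcf7 (0.0883-fold), Ikzf2 (0.145-fold) and Dapl1 (0.227-fold) were lower, and at 5000 UMIs Dapl1 was found in 0 of 13 against 10 of 17 cells. The genes called were 61 higher and 33 lower of 2819 in hashtag 4 (2.16% and 1.17%), and 95 higher and 103 lower of 2945 in hashtag 3 (3.23% and 3.5%). Across the 146 cells thinned to 5000 UMIs, the next highest rho among the few pairs computed was Ccl3 with Ccl4 (rho 0.689), and Gzmc with Dapl1 gave rho -0.345 and Tnfrsf4 with Ccr7 rho 0.360.

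**Figure D5:**
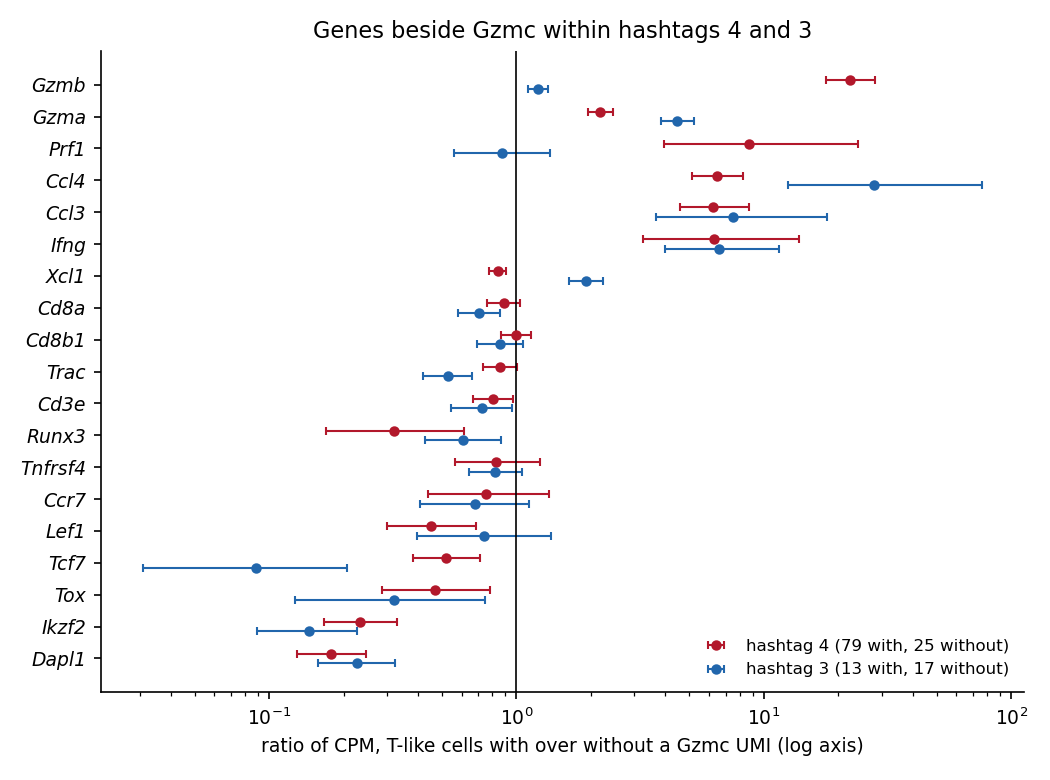
Ratio of CPM (horizontal log axis) between single-tag T-like cells with and without a Gzmc UMI in hashtag 4 (red, 79 and 25 cells) and hashtag 3 (blue, 13 and 17), with exact 95% intervals for counting error; the line marks 1. Ccl4, Ccl3 and Ifng lie to the right in both cultures, Ifng through 1 cell of hashtag 4 and 2 of hashtag 3, and Ikzf2 and Dapl1 to the left, while Gzmb and Prf1 lie to the right in hashtag 4. In hashtag 3, 1 cell held 415 of the 680 Gzmb UMIs in the cells without Gzmc.

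The same rule found 5 cells in experiment 1 (0.0536% of 9332 kept cells, 0.0174 to 0.125%), an experiment that did not serve to define the rule, with a total culture time of 4 to 5 days. Of these, 2 had hashtag 1, 1 had hashtag 2, 1 had hashtag 8 and 1 was a tag doublet. All 5 had Cd3e, at 4 to 18 UMIs, and Zap70, at 1 to 6. Gzmb was found in 4 of the 5, at 69, 81, 28 and 13 UMIs, while Gzmc had 2 and 1 UMIs in 2 cells and none in the other 3. NK-like cells were 107 of the same 9332 (1.15%, 0.941 to 1.38%).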

How the data were processed

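Single-cell mRNA libraries (10x Chromium v3) and matching hashtag libraries were measured in 2 experiments, 1 of each kind per experiment. The deposited values are counts of UMIs per gene, and raw counts per hashtag, for each cell barcode. The gene counts were made with Cell Ranger 3.0.0, and the builds mm10 and GRCm38 are named, per the submitters' processing notes. The hashtag counter is not given in the sources used here. Experiment 2 held 10556 barcodes, of which 10214 were kept (at least 500 genes, under 10% mitochondrial UMIs). Hashtags were called with HTODemux (Seurat 5.3.0, quantile 0.99) and numbered in the order of the deposited columns. Doublets were not removed. Scrublet (scanpy 1.11.5) marked no cell at its default setting and 678 at an expected doublet rate of 0.1, and was used as an alternative only. UMIs were summed over cells and scaled to CPM, and a gene was called at 2-fold and 50 CPM in the higher group. Where stated, shares are for cells thinned to 5000 UMIs, which left out 3 T-like, 2 NK-like and 312 other cells. Other shares, those of the V genes included, are at full depth. Intervals are exact (scipy 1.17.1). TMM scaling (edgeR 4.0.16) was an alternative. Named genes were all genes of the lists, the receptor V genes, and the 15 with the largest ratio each way among genes at 50 CPM or more in the higher group with at least 10 UMIs in the lower. The hashtag 4 and 3 lists of 10 were added after values were seen. The members and lists were chosen with earlier results of these data known. Of 31053 genes counted, 30934 were in the name table. Runx1 and Bcl2 counts cannot be divided into vector or transgene and native transcripts.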

Additional observations from a re-analysis of the deposited data

Results flagged for a closer look

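Hashtag 4 of experiment 2 held the T-like cells at 10.3% of its single cells, far from the other 7 cultures, of which the next was hashtag 3 at 2.82%. Its gap to the next culture was 0.726 of the whole range, above Dixon's 95% critical value for 8 samples. Chance alone flags about 1 in 20 such groups where values are normally distributed. These shares were skewed, with 0 in hashtags 2 and 7, so that rate need not hold. The flag is a description of the spread and not a test of a difference. Hashtag 4 also had the lowest median depth, at 18762 UMIs, and the part of depth in the share was not tested.

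In experiment 1, which the rule did not draw on, 5 cells met it. They were 0.0536% of the 9332 kept cells (exact interval 0.0174 to 0.125%). The limit for a count of 0, at 3 counts of the total, is 0.0321%, and it does not bear on an observed count of 5.

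Among the 342 barcodes of experiment 2 that failed the cell filter, 4 held all 3 rule genes (1.17%, 0.320 to 2.97%). They were left out of all values.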

How the results depend on the processing

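Over 10 results, 138 alternatives were run: 111 stayed within the limits set and 27 moved. The results are counts and shares, which have no direction to change. The cause of each move was not tested, except that a lower limit or fewer UMIs or cells changes a count by construction. With a limit of 20 CPM in place of 50, the genes higher and lower than in other cells were 264 and 408, and those against NK-like cells 128 and 303. With 10 CPM they were 362, 695, 190 and 511. Thinning to 5000 and 3000 UMIs gave Gzmc in 58.3% and 54.6% of T-like cells and Ifng in 11.3% and 7.73%. Thinning to 5000 UMIs before the rule left 114 cells in experiment 2 and 2 in experiment 1, and the stricter filter of 1000 genes and 5% mitochondrial UMIs left 3 in experiment 1. The most frequent Trbv gene was seen in 6 single-tag cells, in 7 cells without those marked by Scrublet, and in 1 cell at 2 or more UMIs. Leaving out each hashtag in turn gave 131 to 147 genes higher and 139 to 181 lower than in other cells, 67 to 71 and 118 to 130 against NK-like cells, Gzmc in 55.3 to 69.5% of cells, Ifng in 20.3 to 30.1%, and the top Trbv gene in 7 to 11 cells. The 3 moves among these all came without hashtag 4 (Gzmc 55.3%, Ifng 30.1%, Trbv 7 cells). Without hashtag 4 and without tag doublets, chosen after seeing the data, 45 cells remained, the highest share was 2.82%, 128 genes were higher than in NK-like cells, Gzmc was found in 31.1% and Ifng in 35.6% of cells, and the top Trbv gene in 2. No paired analysis was possible because there was 1 mRNA library per experiment and no result came from a test.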

Other observations

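Trac, which was part of the T-like rule, was also found in 28 NK-like cells, at 13.8 CPM, and Cd8a in 7 of them. Cd3e was found in 11 NK-like cells.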
